A study of Mus musculus with 11 samples.

Results

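The genes described are the mouse enzymes that modify drugs, dietary compounds and other foreign chemicals: cytochromes P450 of families Cyp1 to Cyp4, carboxylesterases Ces1 and Ces2, UDP-glucuronosyltransferases Ugt1 and Ugt2, the alpha, kappa, mu, omega, pi and theta glutathione S-transferases (Gst), and sulfotransferases (Sult). They were listed by symbol pattern, which gave 160 of the 54513 genes in the deposited count table. By their names 7 of the 160 are pseudogenes, 6 of them Sult and the other Gstm2-ps1, and the word enzymes below covers them too. RNA came from the colonic epithelial fraction of mice, freed of lymphocytes on Percoll, a density medium. Wild-type (WT) mice were set beside double-knockout (DKO) mice, which lack both miR-181a1-b1 and miR-181a2-b2. Baseline mice are labelled as such, and the labels set them against the DSS-treated mice. DSS mice received 2% dextran sulfate sodium, a polymer that injures the colonic epithelium, for 7 days and were then left to recover for 2 days. There were 2 baseline WT, 3 baseline DKO, 3 DSS WT and 3 DSS DKO libraries. The labels do not state the strain, age or sex of the mice, nor how the miR-181 clusters were deleted.

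Foreign compounds are usually handled in steps. Cytochromes P450 insert oxygen into a compound with electrons passed on by Por, the P450 reductase, and carboxylesterases split esters and amides. Transferases then attach a polar group: glucuronic acid for Ugt, glutathione for Gst and sulfate for Sult. Export pumps carry the products out of the cell. Liver holds the highest levels of most of these enzymes, and the intestinal epithelium, which meets compounds from the diet and from bacteria, has its own subset. Many members also act on the body's own molecules, such as bilirubin, steroids, fatty acids and retinoids. Receptors that sense foreign compounds or bile acids, such as Nr1i2 (the pregnane X receptor), Ahr (the aryl hydrocarbon receptor) and Nr1h4 (the farnesoid X receptor), set the level of several members. MiR-181 microRNAs bind messenger RNAs through their seed and lower the stability or translation of their targets.

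Library totals were 41631951 to 52761900 counts, and the 160 enzymes together took 0.567 to 1.05% of them. The 4 rows for Mir181a-1, Mir181a-2, Mir181b-1 and Mir181b-2 were at 0 counts in every library, so these rows do not check the deletion. Mir181a-1hg, from which miR-181a1-b1 is processed, had 8 and 4 counts in baseline WT, 19, 16 and 14 in baseline DKO, 10, 15 and 13 in DSS WT and 21, 31 and 25 in DSS DKO. It was not lower in DKO (log2 fold change 1.14 after DSS, adjusted p = 0.124), and which part of it was deleted is not stated in the labels. Baseline DKO replicates 1 and 2 had 23.0% and 8.46% of counts in the ribosomal RNA gene Rn18s-rs5, against 0.128 to 1.59% in the other libraries. Female-specific Xist was at 6.75 to 14.5 CPM (counts per 1e6 counts of the library) in baseline libraries and at 633 to 906 CPM in DSS libraries, while Y-linked Ddx3y was at 42.6 to 54.9 CPM and 0.162 to 0.895 CPM. Every comparison of DSS with baseline is therefore also a comparison of these sex markers, and DSS and sex cannot be told apart. Epcam, Cdh1, Krt8, Krt18, Krt19, Vil1 and Cldn7, which mark epithelium, were all present, and their summed level was 10343 to 16006 CPM over all libraries. All CPM values were scaled by the trimmed mean of M values (TMM). "Called" means an adjusted p under 0.05 by the quasi-likelihood test of edgeR, with p values adjusted by Benjamini-Hochberg over 19267 genes, and all adjusted p values below come from that test.

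The microRNAs that the DKO mice lack share one seed, shown in capitals (bases 2 to 8 of the mature RNA, from RefSeq with build GRCm38.p6), and the sites that pair with it are what a direct target would carry.
mmu-miR-181a-5p: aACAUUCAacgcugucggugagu
mmu-miR-181b-5p: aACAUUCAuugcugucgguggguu
A 3′ UTR of at least 100 bases was found for 83 of the enzymes, and 7 of these (8.43%) held at least 1 site in the longest UTR of the gene. A site was counted where the UTR pairs with bases 2 to 8, or with bases 2 to 7 and has an A opposite base 1. The former was found in 4 of the 7 genes and the latter alone in 3 (Gstm2, Cyp2j6 and Ugt2b34). The share was 24.5% (3466 of 14169) over all tested genes with such a UTR, but the UTRs differed in length, with a median of 573 bases for the enzymes and 1333 bases for all. The 3 sites below are those of Cyp4b1, which differed between the genotypes after DSS, of Gstm2 from the mu glutathione transferases, and of Cyp2c55, the most abundant member. The bases of the site are in capitals, including for Gstm2 the final A, which does not pair, and the coordinates (GRCm38) are those of the capitals.
Cyp4b1, chr4:115624865-115624871, minus strand: atatttgcTGAATGTttccctgt
Gstm2, chr3:107981816-107981822, minus strand: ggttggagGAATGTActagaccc
Cyp2c55, chr19:39042633-39042639, plus strand: tacctattTGAATGTggatttgt
Cyp2j6, Sult1d1 and Ugt2b34 each held 1 site as well, and Cyp1b1 held 4. A match of letters is a description and does not show binding. Of these 7 genes, Cyp4b1 was called higher and Gstm2 was called lower in DKO after DSS, and the other 5 were not called in that comparison.

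Colonic epithelium expressed a subset of the families. Of the 160 genes, 94 had enough counts to be tested, 52 had a mean over all libraries of at least 10 CPM, and 20 reached 100 CPM. Per kilobase of exon, Cyp2c55, an intestinal P450 that oxidises arachidonic acid, had the highest level, at 872 CPM per kb over all libraries. Its group means were 835 ± 191 for WT (SD, n = 2) and 828 ± 41.5 for DKO at baseline, and 791 ± 115 for WT and 1021 ± 343 for DKO after DSS (SD, n = 3 each unless given). Below it came Sult1a1, the phenol sulfotransferase, at 236 CPM per kb, Gsto1, an omega-class enzyme that reduces dehydroascorbate, at 194, and Sult1d1, which sulfates catecholamines, at 182. Cyp2c65 followed at 140, Ugt2b34 at 131 and the lipid-hydrolysing esterase Ces2c at 129 CPM per kb. Each of these 6 genes overlapped the next in the order over the 11 libraries, whereas every library of Cyp2c55 was above every library of the others. Ugt1a7c, behind Ugt2b34 among the Ugt genes, was at 59.0 CPM per kb. The highest levels per kb of the Cyp4, Cyp3 and Cyp1 families were those of Cyp4f14 (56.2), which hydroxylates leukotriene B4, Cyp3a13 (42.6) and Cyp1b1 (0.0408).

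**Figure D1:**
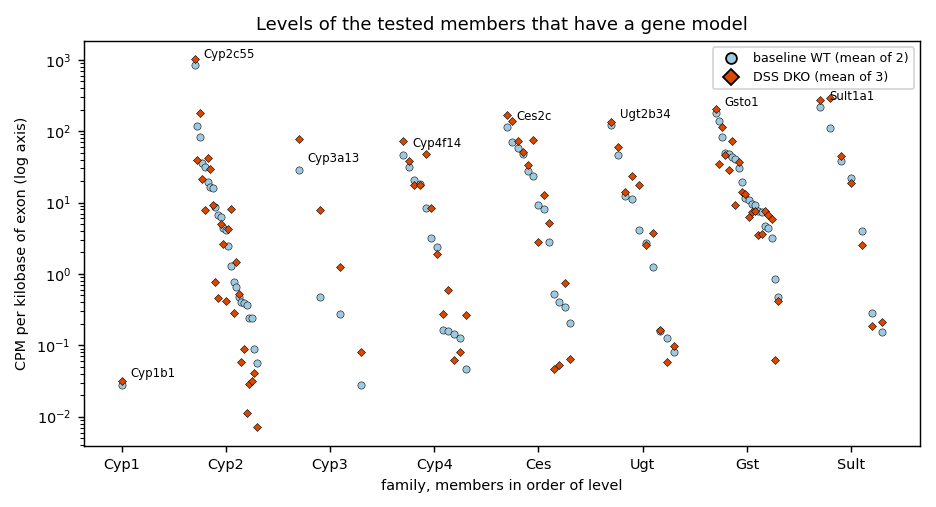
Level of each enzyme as CPM per kilobase of exon (log axis), by family, with circles for the mean of the 2 baseline WT libraries and diamonds for the mean of the 3 DSS DKO libraries. Cyp2c55 lies highest, at 835 and 1021 CPM per kb.

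Several enzymes that are abundant in liver were near the limit of the counts. The 66 genes that were not tested comprised 18 at 0 counts in all libraries, each of which allows up to 3 counts, or 0.0569 to 0.0721 CPM depending on the library, and 48 with at most 42 counts in any library. Cyp1a1, which is induced through Ahr, had 11 counts over all 11 libraries together, and Cyp1a2 had 4. The ethanol-oxidising Cyp2e1 had 29 and Cyp2b10, a target of the receptor Nr1i3, had 20. By family, the tested share was 1 of 3 for Cyp1, 26 of 49 for Cyp2, 4 of 7 for Cyp3, 12 of 17 for Cyp4, 13 of 15 for Ces, 10 of 19 for Ugt, 21 of 23 for Gst and 7 of 27 for Sult, 6 of the untested being pseudogenes. Just inside the filter were Cyp4a32, Cyp2d11 and Cyp3a11 with 79, 78 and 84 counts in all, and just outside were Ugt1a6b, Cyp4a10 and Cyp3a59 with 69, 75 and 49. Of the 94 tested, 27 had a mean under 1 CPM. A gene with few counts could pass the filter through the group in which it was highest, so the counts of calls below describe the 94 and not the 160.

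After DSS, the genotypes differed in opposite directions in different families. In DKO, 3 of 4 tested Cyp3 genes, 5 of 12 Cyp4 genes and Ugt1a1 were higher, 5 of 7 protein-coding mu-class Gst genes were lower, and the most abundant Sult and Cyp2c genes did not pass the test. In all, 25 of 94 tested enzymes were called in DKO against WT after DSS (26.6%), 16 higher and 9 lower. Over all tested genes 11.2% were called, 5.26% higher and 5.98% lower. The median log2 fold change was 0.11 for the enzymes and 0.03 for all genes, with 54 of the 94 positive and 40 negative. When each of the 11 libraries was left out in turn, 11 of the 25 kept their call every time: Cyp3a13, Cyp3a25, Cyp4b1, Cyp4v3, Cyp2d22, Cyp2d26, Ugt1a1, Ces1f, Gstp3, Gstm3 and Gstm6. The count was 12 without DSS DKO replicate 2, 13 without DSS WT replicate 2, 14 without DSS WT replicate 3 and 32 without DSS DKO replicate 1. In bulk libraries such as these, fewer cells of a type and less RNA per cell cannot be told apart.

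**Figure D2:**
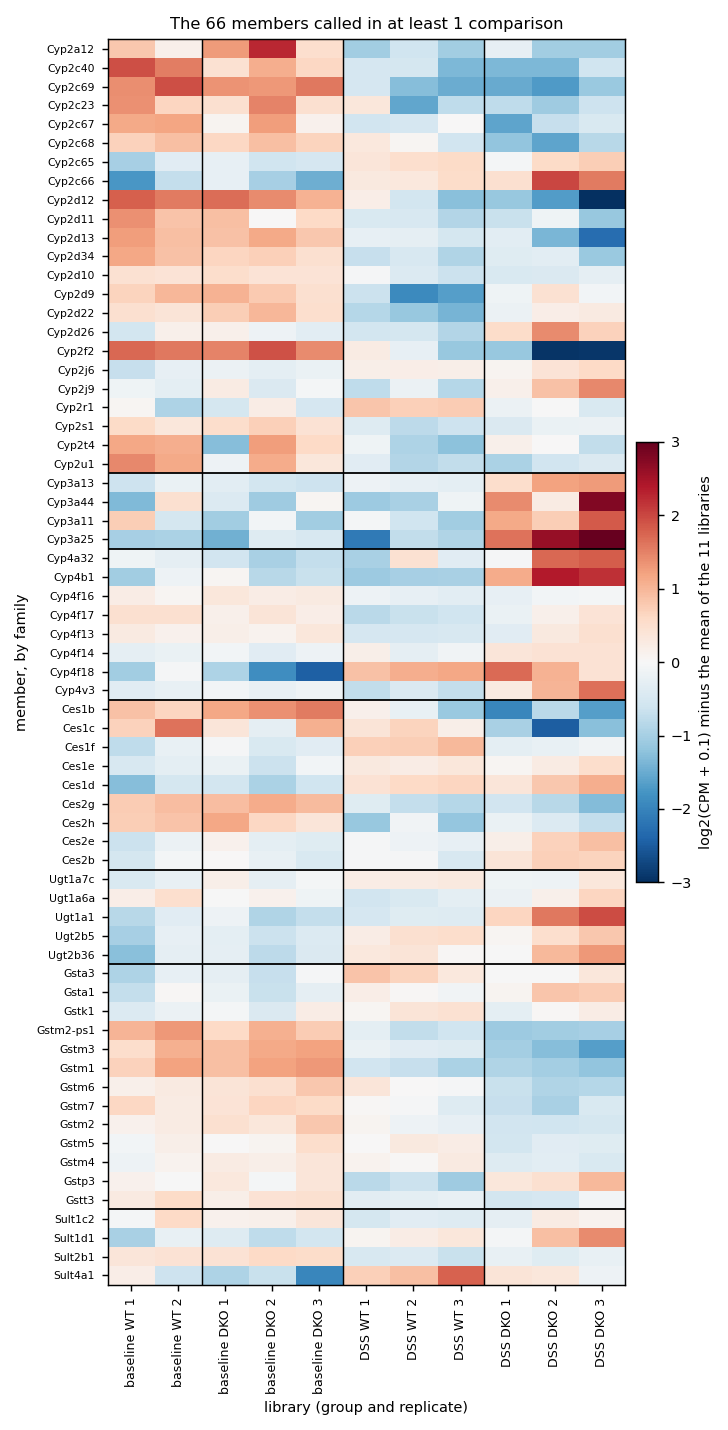
Heat map of the 66 enzymes called in at least 1 comparison (rows, by family) across the 11 libraries (columns, by group), with colour for log2(CPM + 0.1) minus the mean of the gene over the 11 libraries. Most Cyp2 rows are lower in DSS than in baseline libraries, Cyp3 and several Cyp4 rows are highest in the 3 DSS DKO libraries, and the rows of Gstm3 and Gstm6 are lowest there.

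In the Cyp3 family, which oxidises a wide range of drugs and steroids, 3 of the 4 tested genes were higher in DKO after DSS and none was lower. Cyp3a13 (chr5:137892932-137921619, minus strand), the main Cyp3a form of mouse intestine, was at 102, 94.3 and 91.1 CPM in DSS WT and at 161, 257 and 270.1 CPM in DSS DKO. The groups did not overlap, and DSS DKO replicate 1 was the lowest of its group. Its log2 fold change was 1.26 ± 0.18 (SE), adjusted p = 0.00209. Cyp3a25 (chr5:145977194-146009618, minus strand), a form otherwise known from liver and small intestine, was at 0.392, 1.17 and 1.05 CPM in DSS WT and at 6.46, 13.02 and 29.7 CPM in DSS DKO. Again the groups did not overlap, and the DKO libraries differed among themselves more than the WT libraries did. Its log2 fold change was 4.23 ± 0.61 (SE), adjusted p = 0.00334, the highest of the 94. Cyp3a44 was at 0.235, 0.261 and 0.55 CPM and 1.79, 0.749 and 4.78 CPM, with a log2 fold change of 2.79 ± 0.75 (SE), adjusted p = 0.037. That call was lost when baseline DKO replicate 1, DSS DKO replicate 3 or any 1 DSS WT library was left out (adjusted p up to 0.137). Cyp3a11 was scarcer still and did not pass (log2 fold change 3.13, adjusted p = 0.0812). Of the 50-base words in the exons of Cyp3a25, 26.8% also occurred in another gene, chiefly Cyp3a59, and for Cyp3a44 the share was 26.5%, so the split of reads among these close copies is uncertain. Cyp3a13 shared none. The summed Cyp3 level was 97 ± 4.9 CPM for DSS WT and 249 ± 70.8 CPM for DSS DKO (SD, n = 3 each).

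In the Cyp4 family, whose enzymes hydroxylate fatty acids and eicosanoids at the end of the chain, 5 of 12 tested genes were higher in DKO and none was lower. Cyp4b1 (chr4:115624725-115647723, minus strand), which acts on fatty acids and also activates plant furans, was at 12.8, 13.6 and 13.7 CPM in DSS WT and at 58.7, 143 and 124 CPM in DSS DKO. The lowest DKO library stood well above the highest WT library. Its log2 fold change was 3.02 ± 0.38 (SE), adjusted p = 0.00209. Cyp4v3 (chr8:45304944-45333216, minus strand), a fatty acid hydroxylase, was at 8.82, 11 and 8.95 CPM in DSS WT and at 18, 30.02 and 46.6 CPM in DSS DKO, without overlap. It had a log2 fold change of 1.72 ± 0.27 (SE), adjusted p = 0.00312. Cyp4f13, Cyp4f14 and Cyp4f17 were also called higher, with smaller log2 fold changes of 0.68, 0.46 and 0.85 and adjusted p values of 0.0244, 0.0302 and 0.0156. Leaving out DSS WT replicate 2 or DSS DKO replicate 2 ended each of these 3 calls, with adjusted p up to 0.101, 0.149 and 0.0606. The calls of Cyp4f13 and Cyp4f14 also ended without DSS WT replicate 3 or DSS DKO replicate 3, and that of Cyp4f13 without DSS WT replicate 1. The summed Cyp4 level was 351 ± 19.8 CPM for DSS WT and 555 ± 78.6 CPM for DSS DKO (SD, n = 3 each).

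**Figure D3:**
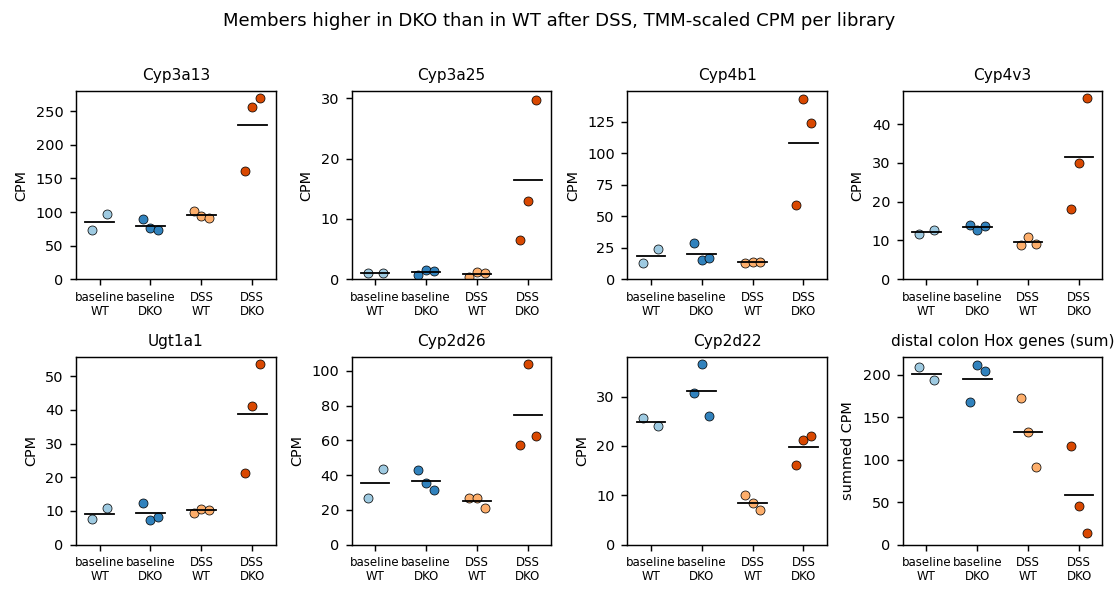
CPM in each of the 11 libraries (points, by group, with a line at the group mean) for Cyp3a13, Cyp3a25, Cyp4b1, Cyp4v3, Ugt1a1, Cyp2d26 and Cyp2d22, and for the sum of 6 distal colon Hox genes. In each enzyme panel the 3 DSS DKO points lie above the 3 DSS WT points, and the Hox sum falls to 13.9 CPM in DSS DKO replicate 3.

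Among the 26 tested Cyp2 genes, 4 were higher and 2 were lower in DKO after DSS. Cyp2d26 (chr15:82790101-82794294, minus strand) was at 26.8, 26.9 and 21.1 CPM in DSS WT and at 57.2, 104 and 62.7 CPM in DSS DKO, with a log2 fold change of 1.58 ± 0.25 (SE), adjusted p = 0.00395. Cyp2d22 (chr15:82370527-82380260, minus strand), often taken as the mouse counterpart of the human drug-metabolising CYP2D enzyme, was at 10.03, 8.35 and 6.92 CPM and 16.2, 21.2 and 21.97 CPM, with a log2 fold change of 1.23 ± 0.18 (SE), adjusted p = 0.0022. Neither gene had overlapping groups. Cyp2d9 and Cyp2j9, an epoxygenase of arachidonic acid, were also higher (log2 fold changes 1.43 and 1.54, adjusted p = 0.0163 and 0.0142). Cyp2d9 lost its call without DSS WT replicate 2 or 3 or DSS DKO replicate 2 (adjusted p up to 0.0799), and Cyp2j9 without DSS WT replicate 3 or DSS DKO replicate 2 (up to 0.0685). Cyp2c68 was lower, at 38.6, 31.8 and 20.6 CPM in DSS WT and 13.4, 10.3 and 17.2 CPM in DSS DKO. Its log2 fold change was -1.15 ± 0.23 (SE), adjusted p = 0.0104, and leaving out DSS DKO replicate 2 took the call away (adjusted p = 0.0525). Of the 50-base words of Cyp2c68, 43.3% also occurred elsewhere, chiefly in Cyp2c40, so the split of reads among these copies is uncertain. Cyp2f2, which oxidises naphthalene in airway cells, was called lower at an adjusted p of 0.048, but its groups overlapped and the call held only when DSS WT replicate 3 or DSS DKO replicate 1 was the library left out (adjusted p up to 0.151 in the other 9 fits). The abundant Cyp2c55 did not pass, at 1316, 1748 and 1670.1 CPM in DSS WT and 1490.1, 1814 and 2804 CPM in DSS DKO (log2 fold change 0.37 ± 0.21 (SE), adjusted p = 0.301). Its groups overlapped, and DSS DKO replicate 3 stood above the rest.

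One of the 10 tested glucuronosyltransferases differed. Ugt1a1 (chr1:88211959-88218997, plus strand), the enzyme that conjugates bilirubin, was at 9.52, 10.5 and 10.4 CPM in DSS WT and at 21.3, 41.2 and 53.6 CPM in DSS DKO. The groups did not overlap, and the log2 fold change was 1.93 ± 0.31 (SE), adjusted p = 0.00407. The Ugt1a genes share their last exons and differ in the first. Of the exon bases of Ugt1a1, 82.7% lie in exons of other genes, namely the other Ugt1a genes and Gm20528. When the counts of all Ugt1a genes were added, the log2 fold change was -0.03 (adjusted p = 0.917). Ugt1a7c was far more abundant, at 69.3 CPM per kb in DSS WT and 59.9 in DSS DKO, against 4.57 and 17.4 for Ugt1a1. The sum is therefore set mostly by Ugt1a7c and cannot show whether Ugt1a1 alone differed. The difference was in the counts assigned to Ugt1a1. The summed Ugt level was 1048 CPM in DSS WT and 977 CPM in DSS DKO.

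Carboxylesterases moved both ways, with 2 of 13 higher and 2 lower. Ces1f (chr8:93256236-93279747, minus strand), a lipid and drug esterase, was at 205, 211 and 246 CPM in DSS WT and at 103, 108 and 116 CPM in DSS DKO. The highest DKO library was below the lowest WT library, and the log2 fold change was -1.02 ± 0.15 (SE), adjusted p = 0.00237. DSS DKO libraries were near the baseline libraries, which lay at 74.3 to 123 CPM, and DSS WT stood above both. Ces2e was at 239, 221 and 207 CPM in DSS WT and at 279, 399.9 and 458 CPM in DSS DKO (log2 fold change 0.77 ± 0.20 (SE), adjusted p = 0.0272), and Ces2b was called higher as well (log2 fold change 0.77, adjusted p = 0.0278). Ces1c, the esterase secreted into plasma, was lower (log2 fold change -2.56, adjusted p = 0.0371). The calls of Ces2e and Ces2b were each lost without DSS WT replicate 2 or 3 or DSS DKO replicate 2 or 3 (adjusted p up to 0.107 and 0.12), and that of Ces1c without baseline DKO replicate 1, DSS DKO replicate 2 or 3 or any 1 DSS WT library (up to 0.109). The most abundant esterase, Ces2c, did not pass (log2 fold change 0.63, adjusted p = 0.0904).

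Of the mu-class glutathione transferases 5 were lower in DKO after DSS, and the pi-class gene Gstp3 was higher. All 7 protein-coding mu genes had a negative log2 fold change, with a median of -0.58. The processed pseudogene Gstm2-ps1, which lies on chromosome 5 and shares 46.9% of its 50-base words, chiefly with Gstm1, was not called (adjusted p = 0.197). Gstm3 (chr3:107963696-107969283, minus strand) was at 25.8, 23.6 and 22.97 CPM in DSS WT and at 14.8, 12.3 and 9.41 CPM in DSS DKO, with a log2 fold change of -0.99 ± 0.18 (SE), adjusted p = 0.00613. Gstm6 (chr3:107938847-107943749, minus strand) was at 16.1, 12.7 and 12.3 CPM and 7.81, 6.62 and 6.89 CPM, with a log2 fold change of -0.94 ± 0.16 (SE), adjusted p = 0.00499. In both genes every DKO library was below every WT library. Gstm2, Gstm4 and Gstm5 were called lower with log2 fold changes of -0.47, -0.52 and -0.59 (adjusted p = 0.0405, 0.0262 and 0.0312). Leaving out DSS WT replicate 2 or 3 or DSS DKO replicate 2 or 3 ended each of these 3 calls, with adjusted p up to 0.137, 0.132 and 0.129. DSS WT replicate 1 did so for Gstm2 and Gstm4, DSS DKO replicate 1 for Gstm2 and Gstm5, and both baseline WT libraries and baseline DKO replicate 1 for Gstm2. Gstm7 missed the threshold (log2 fold change -0.58, adjusted p = 0.0669), and so did Gstm1, the most abundant of the class, at 68.99, 64.1 and 53.6 CPM in DSS WT and 55.1, 50.9 and 45.4 CPM in DSS DKO (adjusted p = 0.246). The 7 genes summed to 221 ± 17 CPM for DSS WT and 154 ± 5.87 CPM for DSS DKO (SD, n = 3 each). Gstp3 (chr19:4057477-4059569, minus strand) went the other way, at 2.17, 2.44 and 1.8 CPM in DSS WT and 4.98, 5.49 and 7.73 CPM in DSS DKO, with a log2 fold change of 1.5 ± 0.23 (SE), adjusted p = 0.00254. Over all 21 tested Gst genes 6 were called. Of the 50-base words of Gstm3, 28.8% also occurred elsewhere, chiefly in Gstm1, so reads could be split between these copies.

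**Figure D4:**
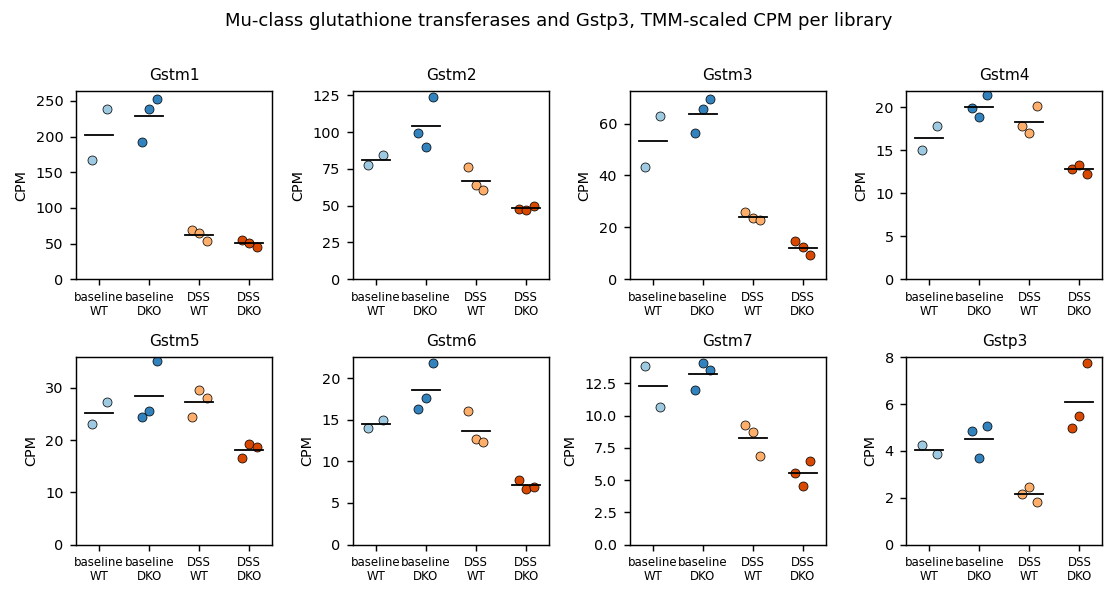
CPM in each of the 11 libraries (points, by group, with a line at the group mean) for the mu-class genes Gstm1 to Gstm7 and for Gstp3. The Gstm3 points step down from baseline through DSS WT (22.97 to 25.8 CPM) to DSS DKO, whereas those of Gstp3 are higher in DSS DKO than in DSS WT.

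The 7 protein-coding mu genes lie on chromosome 3 between 107895821 (the start of Gstm5) and 108044894 (the end of Gstm4). The promoters of 3 of them are shown because their calls differed. Gstm3 was called lower between the genotypes after DSS and with DSS in both genotypes. Gstm1 was lower with DSS in both genotypes but not called between them. Gstm5 was called lower between the genotypes after DSS and with DSS in DKO, but not with DSS in WT (log2 fold change 0.12, adjusted p = 0.625). The 250 bases before the RefSeq start site in GRCm38.p6 (for Gstm1, the more downstream of the 2 listed) are given in the direction of transcription, with 3 searched motifs in capitals: TGACNNNGC, the core of the antioxidant response element, GCGTG, the core bound by Ahr (CACGC on the other strand), and TATAAA, the TATA box.
Gstm1, chr3:108017819-108018068, minus strand: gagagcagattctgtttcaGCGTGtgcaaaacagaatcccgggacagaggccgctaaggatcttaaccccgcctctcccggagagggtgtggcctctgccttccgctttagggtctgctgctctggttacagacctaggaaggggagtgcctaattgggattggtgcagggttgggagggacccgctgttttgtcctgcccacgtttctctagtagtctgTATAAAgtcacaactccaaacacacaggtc
Gstm3, chr3:107969175-107969424, minus strand: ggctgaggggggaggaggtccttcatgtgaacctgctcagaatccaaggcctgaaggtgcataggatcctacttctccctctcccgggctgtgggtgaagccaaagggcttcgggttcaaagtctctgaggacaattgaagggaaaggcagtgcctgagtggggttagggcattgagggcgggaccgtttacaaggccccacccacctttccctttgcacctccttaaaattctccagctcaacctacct
Gstm5, chr3:107895604-107895853, plus strand: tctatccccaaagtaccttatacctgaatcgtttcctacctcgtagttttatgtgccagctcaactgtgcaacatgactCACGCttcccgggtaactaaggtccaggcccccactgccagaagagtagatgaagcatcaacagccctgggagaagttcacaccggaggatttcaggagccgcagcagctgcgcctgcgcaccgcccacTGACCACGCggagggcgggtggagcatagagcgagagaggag
Gstm1 held GCGTG at -231 and TATAAA at -30. Gstm3 held none of the 3 motifs in this window. Gstm5 held TGACCACGC at -42, which overlaps a CACGC at -38, and another CACGC at -171. In a global alignment of the 300-base windows, which reach 50 bases past the start, the Gstm1 start shown and Gstm3 were identical at 204 of 341 columns (59.8%). For the other Gstm1 start the value was 48.3%. Over the 300-base promoter windows of RefSeq, searched on both strands, TGACNNNGC occurred in 6.16% of the 146 promoters of 128 enzymes and in 12.4% of all 32851 promoters. GCGTG occurred in 19.2% and 32.4%, and TATAAA in 29.5% and 13.6%. These are counts of letters and say nothing of binding.

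None of the 7 tested sulfotransferases was called between the genotypes after DSS by edgeR's quasi-likelihood test, and 2 were at an unadjusted p under 0.05. Sult1d1 was at 423, 459 and 501 CPM in DSS WT and at 382, 739 and 1062 CPM in DSS DKO (log2 fold change 0.66 ± 0.32 (SE), adjusted p = 0.226). DSS DKO replicates 2 and 3 were above the WT range and replicate 1 was below it, so the spread within DKO was larger than the difference. Sult1a1 was at 289.8, 383 and 381 CPM and 307, 389 and 523 CPM (log2 fold change 0.21 ± 0.18 (SE), adjusted p = 0.485).

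Several markers of other cells differed between the genotypes after DSS, while the summed markers of position overlapped. The summed level of 6 distal colon Hox genes was 173, 133 and 91.1 CPM in DSS WT and 116, 46.02 and 13.9 CPM in DSS DKO, against 168 to 212 CPM in baseline libraries, although none of the 6 was called between the genotypes by edgeR (2 at an unadjusted p under 0.05). Of the 16 enzymes called higher in DKO, 10 had their lowest DKO value in replicate 1, where the Hox sum was highest, and their highest in replicate 3, where it was lowest. Cyp3a25, Cyp4v3 and Ugt1a1 were among the 10, whereas Cyp4b1, Cyp2d26 and Cyp3a44 were not. Of the 9 called lower, 1 had the reverse order and 1 had the same order as the 10. This order was not counted over all tested genes, so whether it is particular to these enzymes is not known. Small intestine markers summed to 282 to 363 CPM in DSS WT and 284 to 392 CPM in DSS DKO, with Sis, Apob and Mttp higher and Fabp2 and Fabp6 lower in DKO. Neutrophil markers summed to 58.6 to 68.5 CPM in DSS WT and 168 to 245 CPM in DSS DKO (5 of 9 higher), and T and natural killer cell markers to 131 to 144 and 35.3 to 70.5 CPM (8 of 10 lower). Goblet cell markers summed to 6644 to 8244 and 3906 to 4066 CPM (2 of 8 lower), and 4 of 8 crypt base markers were lower in DKO. Of 12 absorptive colonocyte markers, Guca2a, Guca2b, Slc9a3, Alpi and Ms4a18 were higher and Aqp8 was lower, with sums of 9608 to 10162 CPM in DSS WT and 7982 to 10385 CPM in DSS DKO. Their part in the differences of the enzymes was not tested. Hepatocyte markers summed to 59.4 to 74.3 CPM over the 11 libraries, chiefly from Tat, Cps1 and Ttr, with 2 of 7 tested higher and 2 lower in DKO. Their defining members were near 0, with Alb at 0.272 to 3.5 CPM and Serpina1c at 0 in every library.

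At baseline, no enzyme differed between DKO and WT. The count was 0 of 94 by edgeR's quasi-likelihood test and 0 by DESeq2, with 2 (edgeR) and 4 (DESeq2) at an unadjusted p under 0.05. Over all genes 0.026% were called (5 genes). The 2 were Cyp4f18 (log2 fold change -2.07, unadjusted p = 0.0344) and Gstm2 (log2 fold change 0.36, unadjusted p = 0.0311). Cyp3a13, higher in DKO after DSS, had 73.4 and 97.8 CPM in baseline WT and 89.97, 76.7 and 72.8 CPM in baseline DKO, and Cyp4b1 had 13.2 and 24.3 CPM and 28.4, 15.3 and 17.1 CPM. Gstm3 was at 43.4 and 63.1 CPM and 56.3, 65.8 and 69.5 CPM. In these 3 genes the baseline groups overlapped. This comparison rests on 2 WT libraries, and a missed threshold does not show that the genotypes were alike. The sex markers also differed between the baseline and the DSS libraries.

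In WT mice, 16 of 26 tested Cyp2 genes were lower after DSS than at baseline, and Gstm1 was lower as well. Of the 94 tested enzymes 40 were called (11 higher and 29 lower) against 33.4% of all genes (16.9% higher and 16.5% lower), with a median log2 fold change of -0.17 against -0.01. Cyp2 also gave 4 of the 11 higher calls. Cyp2d34 had 358 and 293 CPM in baseline WT and 99.7, 115 and 85.7 CPM in DSS WT, with a log2 fold change of -1.7 ± 0.21 (SE), adjusted p = 0.000342. Cyp2c69 fell by 2.84 on the log2 scale (adjusted p = 0.000238), although 54.3% of its 50-base words also occurred elsewhere, chiefly in Cyp2c40. That share was 60.3% for Cyp2c40, 52.8% for Cyp2c67 and 43.3% for Cyp2c68, which were also called lower. The log2 fold change was -1.04 (adjusted p = 0.000574) for Cyp2s1, an epithelial P450 that acts on retinoids. Of the 8 tested Cyp2d genes 7 fell. Among them Cyp2d11, with 78 counts in all, was highest in baseline WT and could pass the filter through that group. Its fall therefore adds no separate support. Cyp2c40 and Cyp2c67, also called lower, were highest in baseline WT too, at 0.37 and 0.401 CPM per kb. They were at 0.025 and 0.105 in DSS WT, so their calls carry the same limit. Gstm1 (chr3:108012255-108017973, minus strand) had 167 and 239 CPM in baseline WT and 68.99, 64.1 and 53.6 CPM in DSS WT, with a log2 fold change of -1.7 ± 0.17 (SE), adjusted p = 0.000132. Sult2b1, which sulfates cholesterol, and Ces2g fell too (log2 fold changes -0.91 and -1.49, adjusted p = 0.0012 and 0.000526). Against these, Ces1d, a triacylglycerol hydrolase, had 41.5 and 70.1 CPM in baseline WT and 136, 154 and 158 CPM in DSS WT (log2 fold change 1.42 ± 0.25 (SE), adjusted p = 0.0021), and Ces1f rose as well (log2 fold change 1.27, adjusted p = 0.000567). None of the 4 tested Cyp3 genes passed in edgeR, and none was at an unadjusted p under 0.05. Over the same libraries goblet cell markers summed to 40337 to 40599 CPM at baseline and 6644 to 8244 CPM after DSS (3 of 8 lower), and 9 of 10 T and natural killer cell markers rose. Their part in the changes of the enzymes was not tested. Of the 40, 15 kept their call whichever library was left out, the genes with a log2 fold change given here among them. The count was 19 without baseline WT replicate 1 and 25 without DSS WT replicate 3.

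In DKO mice, 52 of the 94 were called (24 higher and 28 lower) against 23.6% of all genes (12.6% higher and 11% lower), with a median log2 fold change of 0.00 against 0.01. All 7 protein-coding mu Gst genes fell, and so did the pseudogene Gstm2-ps1. Gstm1 was at 193, 239 and 253 CPM in baseline DKO and 55.1, 50.9 and 45.4 CPM in DSS DKO, with a log2 fold change of -2.18 ± 0.16 (SE), adjusted p = 1.07e-05. Gstm3 fell by 2.39 on the log2 scale (adjusted p = 1.33e-05), Gstm6 by 1.39 (adjusted p = 0.000266) and Ces2g by 1.89 (adjusted p = 8.79e-05). All 4 tested Cyp3 genes rose, Cyp3a13 by 1.52 on the log2 scale (adjusted p = 0.00029) and Cyp3a25 by 3.74 (adjusted p = 0.00235). Cyp3a11 and Cyp3a44, with few counts, lost that call without baseline DKO replicate 1 or 3 or DSS DKO replicate 3 among others (adjusted p up to 0.113 and 0.128). Cyp3a11, with 84 counts in all, was highest in DSS DKO and could pass the filter through that group. Its rise therefore adds no separate support. Cyp4b1 rose by 2.42 (adjusted p = 0.0021) and Ugt1a1 by 2.06 (adjusted p = 0.00134). With all Ugt1a counts added the log2 fold change was 0.23 (adjusted p = 0.318). That sum is set mostly by Ugt1a7c and does not decide the call of Ugt1a1. Sult1d1 was at 306, 233 and 271 CPM in baseline DKO and rose after DSS (log2 fold change 1.43 ± 0.33 (SE), adjusted p = 0.0124), a call lost without baseline DKO replicate 2 (adjusted p = 0.0561). Of the 52, 31 kept their call whichever library was left out. The count was 34 without baseline DKO replicate 2. Distal colon Hox genes (3 of 6) and goblet cell markers (6 of 8) were lower in these DSS libraries too, and 7 of 9 neutrophil markers were higher.

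The responses to DSS in WT and in DKO come from separate libraries and can be set side by side. Of the enzymes called lower, 20 were lower in both, which is 69.0% of the 29 in WT and 71.4% of the 28 in DKO. Over all tested genes the shares for lower calls were 40.3% and 60.4%. Of those called higher, 6 were higher in both (Ces1d, Ces1e, Cyp2c65, Cyp2c66, Cyp2j6 and Ugt2b5), 54.5% of the 11 in WT and 25% of the 24 in DKO, against 42.0% and 56.3% over all tested genes. These differences in share were not tested. None was called in opposite directions. Cyp2d26 rose in DKO (log2 fold change 1.03, adjusted p = 0.0131, 0.0553 without baseline DKO replicate 2), while its log2 fold change in WT was -0.50 (adjusted p = 0.178). The difference between these responses did not pass (adjusted p = 0.0608).

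**Figure D5:**
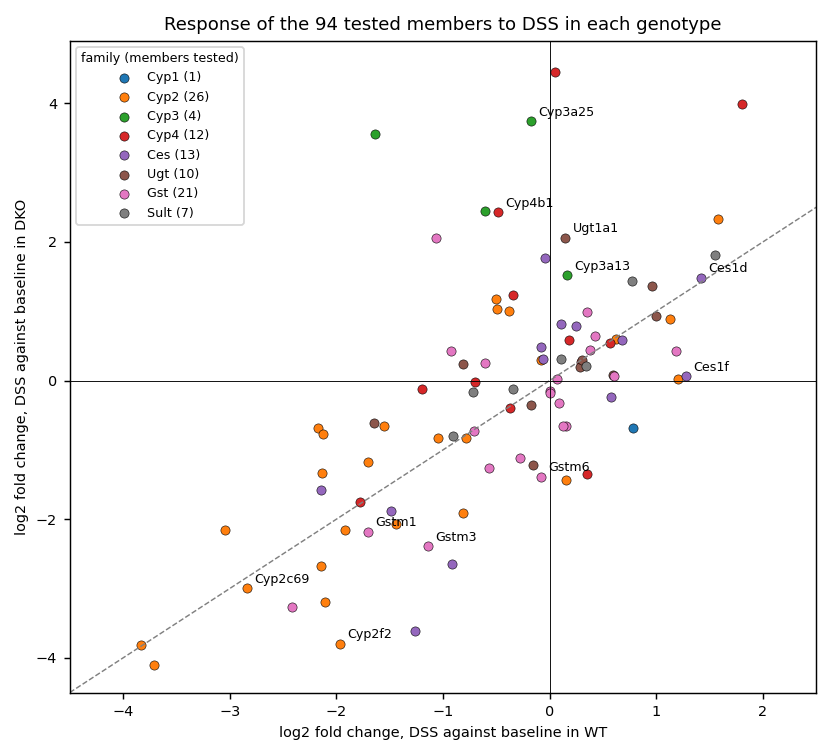
Log2 fold change of DSS against baseline in WT (horizontal) and in DKO (vertical) for the 94 tested enzymes, coloured by family, with a dashed line where both are equal. The 4 Cyp3 genes and Cyp4b1 lie above the line, and Gstm3, Gstm6 and Ces1f lie below it.

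The difference between those responses was itself called for 5 of the 94 enzymes (2 higher and 3 lower), against 1.57% of all genes (0.773% higher and 0.794% lower), and the median was 0.02 for both. The change with DSS was more positive in DKO for Cyp4b1 (2.91 ± 0.53 (SE), adjusted p = 0.0317, on the log2 scale) and Cyp3a13 (1.36 ± 0.27 (SE), adjusted p = 0.0312). It was more negative in DKO for Gstm6 (-1.3 ± 0.25 (SE), adjusted p = 0.0272), Ces1f (-1.21 ± 0.23 (SE), adjusted p = 0.0274) and Gstm3 (-1.25 ± 0.27 (SE), adjusted p = 0.0424). In Gstm3 the level fell in both genotypes and by more in DKO, while Ces1f rose in WT and did not pass in DKO (log2 fold change 0.06, adjusted p = 0.804). The sex markers split baseline from DSS libraries, so a difference of genotype by DSS and one of genotype by sex cannot be told apart. None of the 5 kept its call whichever library was left out. The count was 0 without any 1 of baseline WT replicate 1, baseline DKO replicate 3, DSS WT replicates 2 and 3 and DSS DKO replicate 2. It was 1 without baseline WT replicate 2 or baseline DKO replicate 2, 2 without baseline DKO replicate 1 and 19 without DSS DKO replicate 1, with adjusted p of the 5 reaching 0.104 to 0.19.

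Genes that work with these enzymes were read from lists of receptors, electron donors, cofactor suppliers, other drug-metabolising enzymes and transporters. After DSS, 2 of 18 receptors and regulators were higher in DKO and none was lower. Over all tested genes 11.2% were called, 5.26% higher, so the number of calls in this list was near the share over all genes. Nr1h4, the bile acid receptor, was at 139, 161 and 188 CPM in DSS WT and 246, 357 and 478 CPM in DSS DKO (log2 fold change 1.15 ± 0.21 (SE), adjusted p = 0.00687), without overlap. Nr1i2, which drives Cyp3a genes in liver and intestine, was at 91.3, 102 and 94.7 CPM and 106, 147 and 173 CPM (log2 fold change 0.56 ± 0.15 (SE), adjusted p = 0.0334), a call lost without DSS DKO replicate 2 or 3 or any 1 DSS WT library (adjusted p up to 0.119). No aryl hydrocarbon receptor target was called by edgeR (0 of 4, with 3 at an unadjusted p under 0.05). In DSS against baseline, 9 of 18 regulators were called in WT and 8 in DKO, 6 of them higher in each, against 33.4% and 23.6% of all genes. The lipid-sensing receptor Ppara rose in both (log2 fold changes 1.38 and 1.69, adjusted p = 0.00608 and 0.00152), and Vdr, the vitamin D receptor, fell in both (log2 fold changes -1.07 and -0.71, adjusted p = 0.000531 and 0.00343).

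Among electron transfer partners, 3 of 6 were called between the genotypes after DSS: Por was higher (log2 fold change 0.92, adjusted p = 0.016), and Pgrmc2 and Cyb5b were lower (log2 fold changes -0.66 and -0.48, adjusted p = 0.0101 and 0.0213). Por lost its call without DSS WT replicate 2 or 3 (adjusted p up to 0.0637), Pgrmc2 without DSS DKO replicate 2 (0.0542) and Cyb5b without any 1 of those 3 libraries (up to 0.0862). Of 12 cofactor genes, Ggt1, which breaks down extracellular glutathione, was at 4.6, 6.43 and 5.61 CPM in DSS WT and 23.3, 24.4 and 26.9 CPM in DSS DKO (log2 fold change 2.16 ± 0.19 (SE), adjusted p = 0.000178), without overlap. Slc35d1, which carries UDP-glucuronic acid into the endoplasmic reticulum, was the only other one called (log2 fold change 0.78, adjusted p = 0.00609). Of 31 other drug-metabolising enzymes, 2 were higher and 3 were lower. Fmo1, a flavin monooxygenase, was at 6.99, 5.33 and 4.28 CPM in DSS WT and 0.999, 1.09 and 0.522 CPM in DSS DKO (log2 fold change -2.65 ± 0.30 (SE), adjusted p = 0.000743), and the deacetylase Aadac was lower too (log2 fold change -1.35, adjusted p = 0.000652). Transporters had 5 of 17 higher and none lower. Abcb1a, the P-glycoprotein pump, was at 528, 649.9 and 602 CPM in DSS WT and 676, 1172 and 1592 CPM in DSS DKO (log2 fold change 0.95 ± 0.25 (SE), adjusted p = 0.0322), and Abcc5, an organic anion pump, rose as well (log2 fold change 0.97, adjusted p = 0.00264). The call of Abcb1a held only when baseline DKO replicate 1 or 3 or DSS DKO replicate 1 was the library left out (adjusted p up to 0.103 in the other 8 fits). The share called over all genes in this comparison was 11.2%, and the lists were chosen with results of these libraries known.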

How the data were processed

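RNA was measured by sequencing in 11 libraries of mouse colonic epithelial cells. Per the labels' protocols, polyadenylated RNA was captured with oligo(dT) before NEBNext Ultra II library preparation. The authors deposited raw counts, and 0 columns were left unmatched to a sample. STAR and mm10 are named in the submitters' processing notes, while for the version, counter, annotation and strand the entry is: not given in the sources used here. Reads of overlapping genes therefore cannot be told apart. Low counts were more often even than odd (54.8 to 58.2% even), so a count of 2 can be 1 fragment.

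R 4.3.3 and edgeR 4.0.16 were used: filterByExpr at a minimum count of 10, TMM scaling and a robust quasi-likelihood model over all 11 libraries in 4 groups (common biological coefficient of variation 0.234), with two-sided tests and Benjamini-Hochberg adjustment over 19267 genes at 0.05. The tested genes held at least 99.9% of each library's counts. DESeq2 1.42.0 was an alternative, and others were no filter, a fold threshold, a replicate block and leaving out each library. The scripts were tested on simulated data. The labels call the libraries biological replicates without naming mice. Whether each came from a separate mouse, on which the reading of each p-value rests, is not stated. Every pair of libraries in a group differed beyond sampling noise (chi-square per degree of freedom 14.4 to 788). Members and lists were chosen with earlier results of these data known. Named genes were the 4 called members with the lowest adjusted p in each family, the 2 with the highest CPM per kb and, for each list, up to 4 called genes. Cyp2d9, Cyp2f2, Cyp4f14, Gstm2 and Gstm5 in DKO against WT after DSS, with some non-called members, fall outside that rule and were chosen after their values were seen. The same holds for Cyp2d26, Ces1e and Gstm2-ps1 for DSS in DKO, and for Cyp2c65, Cyp2c66 and Cyp2j6 for DSS in both genotypes. Lengths and positions came from GENCODE M21 (GRCm38), matched by symbol for 158 of 160 genes, and sequences from RefSeq (GRCm38.p6).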

Additional observations from a re-analysis of the deposited data

Results flagged for a closer look

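The change from baseline to DSS libraries, in which DSS and sex cannot be told apart, differed between the genotypes for 5 enzymes. This is by the interaction term of edgeR's quasi-likelihood test, and none of the 5 kept its call whichever library was left out. The log2 difference, DKO response minus WT response, was -1.30 for Gstm6, -1.25 for Gstm3, -1.21 for Ces1f, 1.36 for Cyp3a13 and 2.91 for Cyp4b1. No group had the 4 samples that the check for a single outlying sample needs.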

How the results depend on the processing

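No enzyme was called at baseline under any setting run. Leaving out 1 library at a time gave 12 to 32 calls in DKO against WT after DSS (25 with all libraries), 19 to 43 for DSS in WT (40), 34 to 53 for DSS in DKO (52) and 0 to 19 for the interaction (5). Without the filter on low counts there were 39 calls between the genotypes after DSS and 24 for the interaction, and DESeq2 gave 18 for the interaction. Requiring a log2 fold change of at least 1 left 15 after DSS between the genotypes and 26 for DSS in WT. With a replicate block the counts were 27, 0, 37, 52 and 6 (after DSS, baseline, DSS in WT, DSS in DKO, interaction). The numbers share no stated source: same-numbered DSS libraries of the genotypes correlated at 0.30, 0.02 and 0.20 in their deviations, and DSS WT replicate 2 correlated best with DSS DKO replicate 3. The sum of all Ugt1a counts, set mostly by Ugt1a7c, was run in place of each Ugt1a gene. Its log2 fold change was -0.0341 between the genotypes after DSS, where that of Ugt1a1 was positive. It was 0.52 for DSS in WT, where that of Ugt1a6a was negative. Both are counted as reversed below, although the sum cannot show that either gene reversed. Over single genes, 3039 of 3421 alternative values kept direction and side of the threshold, 380 were no longer called and 2 reversed; the cause was not tested. Depth limits the 27 tested enzymes under 1 CPM.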
